A study of Mus musculus with 18 samples.

Results

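Chromatin accessibility was examined at the loci of 7 genes that mark alternatively activated or scavenging macrophages: Arg1, Mrc1, Cd163, Msr1, Marco, Cd36 and Retnla. The regions are the ATAC-seq peaks that overlap the body of one of these genes extended by 25 kb on both sides, in the mm9 genome with the GENCODE M1 annotation. This rule found 163 of the 194284 peaks of the series, of which 53 lie at Mrc1, 43 at Cd36, 32 at Msr1, 10 at Cd163, 9 each at Arg1 and Marco, and 7 at Retnla. ATAC-seq reads the sites at which the Tn5 enzyme could cut, and the more reads a peak holds, the more accessible its DNA was. The cells were bone marrow-derived macrophages (BMDMs) from 3 Il10-/- mice (C57BL/6J, 12-week-old males), matured for 6 days in medium conditioned by L929 cells. All 6 groups therefore lack endogenous IL-10, and no wild-type cells were part of the comparison. Each group has 3 libraries, numbered 1 to 3 (n = 3, 18 libraries in all), and which mouse a number stands for is not given in the sources used here. Cells were left untreated or given 500 nM (+)-JQ1, which blocks the bromodomains of BET proteins, or 10 ng/mL IL-10 for 12 hours, and then received either no LPS or 50 ng/mL LPS for 4 hours. The paper's methods also name a vehicle control before LPS and an untreated, unstimulated control, while the sample titles call both groups untreated. A part of vehicle in the steps from unstimulated cells was not tested. The groups are called unstimulated, (+)-JQ1, IL-10, LPS, LPS + (+)-JQ1 and LPS + IL-10.

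Alternative activation is the state that macrophages enter under IL-4 or IL-13 through STAT6, and IL-10, which acts through STAT3, induces some of the same genes. Arg1 encodes arginase, which converts arginine to ornithine and so competes with nitric oxide synthesis, and Retnla encodes the secreted protein RELMα. Mrc1 (CD206) is the mannose receptor, Cd163 takes up haemoglobin-haptoglobin complexes, Msr1 and Marco are class A scavenger receptors that bind modified lipoproteins and bacteria, and Cd36 is a class B scavenger receptor that takes up long-chain fatty acids and oxidized LDL. LPS is sensed by TLR4 and drives the opposite, inflammatory state.

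The genes lie at chr10:24635014-24647276 (Arg1, minus strand), chr2:14151041-14253684 (Mrc1, plus), chr6:124254669-124280545 (Cd163, plus), chr8:40667054-40728032 (Msr1, minus), chr1:122371115-122401661 (Marco, minus), chr5:17287508-17394777 (Cd36, minus) and chr16:48842665-48844574 (Retnla, plus). Of the 163 peaks, 108 lie within the gene body (78 in introns only and 30 over an exon), 27 upstream and 28 downstream. The authors classed 13 as promoter and 150 as distal. A further gene's record overlaps 13 of them: Med23 beside Arg1, Fam23a and the microRNA Mir511 at Mrc1, AC154124.1 beside Cd36 and Retnlb beside Retnla. Peaks are named by the distance of their midpoint from the 5′ end of the gene record, in the direction of the gene, so that Msr1 +44.0 kb lies inside the gene and Arg1 -3.0 kb upstream of it. A peak overlaps the 5′ end of Arg1, Mrc1, Msr1 and Marco. Cd163, Cd36 and Retnla have no peak within 2 kb of it. At Cd36 the starts of some, but not all, annotated transcripts lie in the peaks at +51.1 and +38.3 kb.

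For 6 of the loci, the middle 300 bases of the peak with the lowest FDR in any of the group comparisons are given here, read from the mm9 genome, so that the letters of these elements can be read beside their values. The peaks were picked after their values were seen. Capitals mark matches to the short motifs searched.
Msr1 +44.0 kb (mm9 chr8:40683882-40684181, plus strand): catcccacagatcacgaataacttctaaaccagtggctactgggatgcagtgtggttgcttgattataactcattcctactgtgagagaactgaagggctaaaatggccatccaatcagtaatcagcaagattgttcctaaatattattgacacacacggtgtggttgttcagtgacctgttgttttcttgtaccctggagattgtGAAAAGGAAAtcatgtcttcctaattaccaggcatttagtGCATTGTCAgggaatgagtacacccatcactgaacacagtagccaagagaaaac
Mrc1 +107.1 kb (mm9 chr2:14257988-14258287, plus strand): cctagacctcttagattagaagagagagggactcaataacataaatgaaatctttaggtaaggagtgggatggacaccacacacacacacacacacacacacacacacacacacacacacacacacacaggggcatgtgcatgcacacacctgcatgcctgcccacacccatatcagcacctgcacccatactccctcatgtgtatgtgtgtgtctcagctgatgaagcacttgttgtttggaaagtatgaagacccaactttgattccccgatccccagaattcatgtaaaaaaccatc
Cd36 +113.4 kb (mm9 chr5:17281182-17281481, plus strand): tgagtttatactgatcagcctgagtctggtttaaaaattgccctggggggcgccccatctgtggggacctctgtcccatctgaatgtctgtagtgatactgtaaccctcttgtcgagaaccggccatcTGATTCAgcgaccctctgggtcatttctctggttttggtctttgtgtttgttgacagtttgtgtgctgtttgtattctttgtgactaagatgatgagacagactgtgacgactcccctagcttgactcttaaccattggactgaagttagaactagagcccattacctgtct
Arg1 -3.0 kb (mm9 chr10:24650105-24650404, plus strand): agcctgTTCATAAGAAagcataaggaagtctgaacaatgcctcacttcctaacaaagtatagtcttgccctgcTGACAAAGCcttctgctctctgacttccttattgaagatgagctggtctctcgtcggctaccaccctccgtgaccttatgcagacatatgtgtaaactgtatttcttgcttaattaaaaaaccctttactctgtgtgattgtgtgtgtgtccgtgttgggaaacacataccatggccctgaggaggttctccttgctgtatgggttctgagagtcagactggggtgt
Cd163 +15.1 kb (mm9 chr6:124269666-124269965, plus strand): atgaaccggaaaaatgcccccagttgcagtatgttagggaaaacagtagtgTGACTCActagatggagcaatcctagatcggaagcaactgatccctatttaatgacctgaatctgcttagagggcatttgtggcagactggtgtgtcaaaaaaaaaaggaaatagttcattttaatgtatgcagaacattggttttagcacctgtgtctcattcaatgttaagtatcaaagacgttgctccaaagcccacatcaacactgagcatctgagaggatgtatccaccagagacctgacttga
Retnla -11.0 kb (mm9 chr16:48831545-48831844, plus strand): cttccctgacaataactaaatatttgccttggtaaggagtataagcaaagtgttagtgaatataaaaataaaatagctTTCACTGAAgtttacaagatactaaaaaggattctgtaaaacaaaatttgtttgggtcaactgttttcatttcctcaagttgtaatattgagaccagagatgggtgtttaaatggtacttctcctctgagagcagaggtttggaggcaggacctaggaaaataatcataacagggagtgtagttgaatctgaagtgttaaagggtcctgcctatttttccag
The capitals mark an interferon-response-like match (GAAA, 2 free bases, GAAA) and an antioxidant-response-like match (TGACNNNGC) in Msr1 +44.0 kb, and an AP-1 match (TGANTCA) in both Cd36 +113.4 kb and Cd163 +15.1 kb. In Arg1 -3.0 kb they mark a STAT6-type match (TTC and GAA 4 bases apart) followed by an antioxidant-response-like match, and in Retnla -11.0 kb a STAT match (TTCNNNGAA). The window of Mrc1 +107.1 kb held none of the motifs searched.

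Over all loci, searching both strands of the same 300-base windows, the STAT letters TTCNNNGAA were found in 28 of the 163 peaks (17.2%) against 8.74% of all 194284 peaks. TGANTCA was found in 31 (19.0%) against 12.1%, and the STAT6-type spacing in 19 (11.7%) against 7.5%. The remaining motifs were nearer to the share in all peaks or rarer. TGACNNNGC stood in 22 (13.5% against 11.6%), GAAA with 2 free bases and GAAA in 6 (3.68% against 4.4%), the PU.1 letters GAGGAAGT in 6 (3.68% against 4.58%), the E-box CACGTG in 3 (1.84% against 4.33%), the C/EBP letters TTGCGNAA in 1 (0.613% against 0.469%) and a κB site (GGGANTTCC, or the same with a further T) in 1 (0.613% against 1.72%). The STAT letters were spread over Mrc1 and Cd36 (8 peaks each), Msr1 (5), Retnla (3), Arg1 and Marco (2 each) and were in no window at Cd163. A match is a string of letters, not a proven binding site, and motifs can overlap one another.

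The libraries held between 12020526 and 25908198 counts in peaks. All 8 macrophage markers checked (such as Csf1r, Spi1 and Emr1) had a peak at the gene start, whereas the starts of Mpo, Ly6g, Cd3e, Cd3g, Cd209a, Col1a2, Col3a1 and Gata1 had none. Of the markers of other cells, a start peak was present at 3 of 5 neutrophil, 2 of 4 T cell, 4 of 4 B cell, 2 of 3 dendritic cell, 2 of 4 fibroblast and 2 of 3 erythroid genes. The B cell list, with Ms4a1 highest, summed to 7.34 to 14.8 CPM (TMM-normalized read counts scaled to a common library size, used throughout as the level of a peak), the dendritic cell list, with Zbtb46 and Flt3, to 27.7 to 54.6 CPM, the fibroblast list, nearly all Col1a1, to 11.0 to 17.5 CPM and the T cell list, nearly all Lck, to 5.85 to 10.1 CPM. The macrophage list summed to 104.3 to 211.6 CPM, and the part of other cells in the results was not tested. The 3 peaks at Il10, the deleted gene, summed to 11.7 to 27.4 CPM, but without wild-type cells they do not check the deletion. The unstimulated libraries had TMM factors of 1.04 to 1.24, against 0.896 to 1.05 elsewhere, and the start peaks of the housekeeping genes Actb, Gapdh and Ppia summed to 89.2 to 128.5 CPM in them against 118.2 to 175.2 CPM in the other groups.

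A peak was called a differentially accessible region (DAR) where its FDR was below 0.05 and its log2 fold-change (log2FC) lay beyond 0.5 in either direction, by edgeR's quasi-likelihood test adjusted over all 194230 tested peaks. All 163 peaks passed the filter on low counts, and 88 were DARs in at least 1 of the 7 comparisons between groups (54.0%, against 38.3% of all tested peaks). By locus these were 25 of 32 peaks at Msr1, 28 of 53 at Mrc1, 23 of 43 at Cd36, 4 of 9 at Arg1, 3 of 7 at Retnla, 3 of 10 at Cd163 and 2 of 9 at Marco. A lower value can reflect fewer cells with the region open or less opening per cell, and these cannot be told apart in bulk libraries.

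LPS against unstimulated cells gave 17 more accessible peaks (10.4%, against 11.7% of all tested peaks) and 29 less accessible ones (17.8% against 10.2%). Most gains were at Msr1 (14 of 17) and most losses at Mrc1 (15) and Cd36 (10). With scaling to total counts the split was 8 higher and 48 lower, beside 6.58% higher and 19.3% lower of all tested peaks. Under LPS, IL-10 raised 32 peaks (19.6% against 4.26%) and lowered 2 (1.23% against 4.52%), with 18 of the gains at Msr1, 8 at Mrc1 and 3 at Arg1. The median log2FC over the 163 peaks was -0.29 for LPS and 0.34 for LPS + IL-10 against LPS, beside -0.03 and -0.01 over all peaks. Under LPS, (+)-JQ1 raised 6 (3.68% against 1.74%) and lowered 9 (5.52% against 3.48%), the losses being 8 peaks at Msr1 and 1 at Marco. Set against each other under LPS, (+)-JQ1 gave 3 higher peaks than IL-10 (1.84% against 3.43%) and 24 lower ones (14.7% against 4.67%). Without replicate 2, that is without the 6 libraries of that number, the DARs numbered 25 in place of 46 for LPS, 18 in place of 34 for LPS + IL-10, and 9 in place of 15 for LPS + (+)-JQ1, while without replicate 1 those for LPS + IL-10 numbered 20. The direct comparison stayed between 20 and 25 of 27 when the libraries of any 1 number were left out.

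Without LPS, IL-10 raised 9 peaks (5.52% against 5.16%) and lowered 14 (8.59% against 3.5%), and (+)-JQ1 raised 15 (9.2% against 7.85%) and lowered 7 (4.29% against 3.15%). (+)-JQ1 against IL-10 gave 10 higher peaks (6.13% against 1.02%), 9 of them at Cd36, and 13 lower ones (7.98% against 1.47%), 12 of them at Mrc1. These comparisons share the unstimulated or treated libraries and were not combined. The (+)-JQ1 split depended on scaling to the unstimulated cells: it was 15 higher and 7 lower with TMM, 1 and 20 with scaling to total counts (against 1.97% and 14.1% of all peaks), 4 and 3 with loess offsets (against 1.32% and 2.27%), and 6 and 4 without Unstimulated replicate 1 (against 5.11% and 1.43%). For IL-10 it was 6 higher and 26 lower with total counts (against 1.27% and 8.58%). The summed start peaks of the 3 housekeeping genes moved with the step from unstimulated cells, at 89.2 to 128.5 CPM in unstimulated, 151.2 to 175.2 in (+)-JQ1, 137.6 to 150.2 in IL-10 and 137.5 to 156.2 in LPS libraries, and their part in these results was not tested. The (+)-JQ1 count was 13 without replicate 1 and 7 without replicate 2, that of IL-10 was 11 without replicate 2, and that of (+)-JQ1 against IL-10 was 6 without replicate 2 and 10 without replicate 3. The interaction, which asks whether a treatment acted differently with LPS than without, passed for (+)-JQ1 at 1 higher peak (0.613% against 0.649%) and 2 lower (1.23% against 3.18%), and for IL-10 at 17 higher (10.4% against 2.01%) and 3 lower (1.84% against 5.9%). Without 1 replicate number the (+)-JQ1 interactions numbered 0 to 4 (1 without replicate 1, 0 by edgeR without replicate 2, where 15 peaks had an unadjusted p below 0.05, and 7 by DESeq2 with all libraries) and the IL-10 interactions 6 to 15, with 8 without replicate 1 and 6 without replicate 2, and total counts turned the splits into 3 higher and 1 lower for (+)-JQ1 (against 2.41% and 0.947% of all peaks) and 30 and 1 for IL-10 (against 6.28% and 2.65%).

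**Figure D1:**
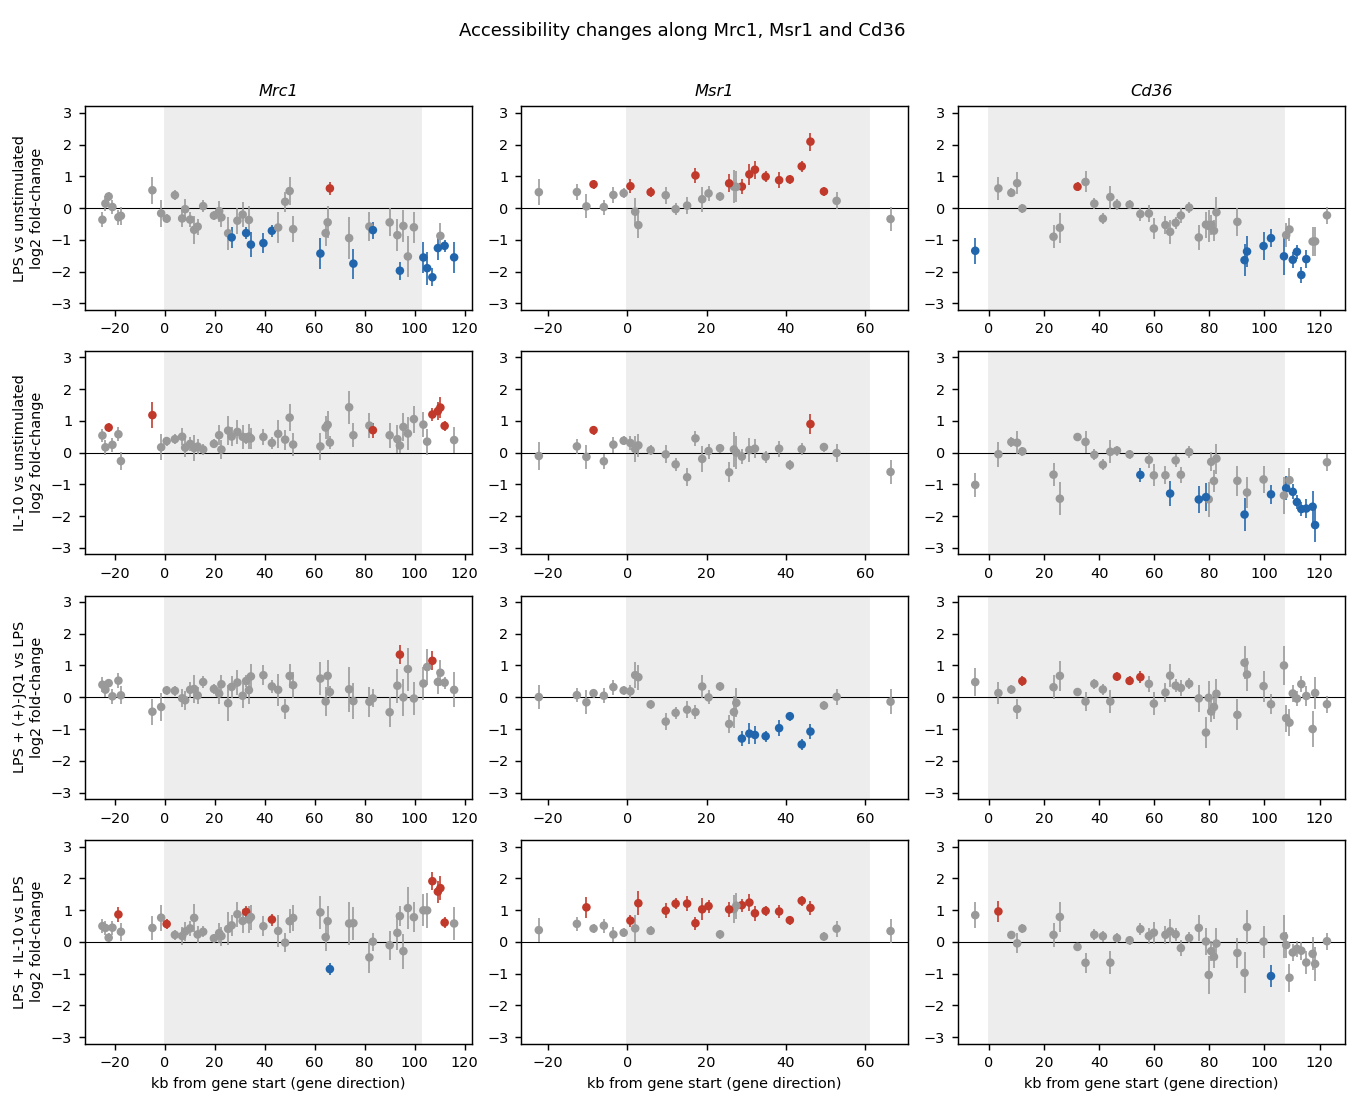
Log2 fold-change (y axis, bars are the standard error) of each peak along Mrc1, Msr1 and Cd36 against the distance of its midpoint from the gene start in kb (x axis), for 4 comparisons (rows). Grey shading is the gene body, red and blue points are DARs that rose or fell and grey points are not DARs; at Msr1 the blue points of LPS + (+)-JQ1 lie between +28.9 and +46.2 kb, in the stretch where the red points of LPS and of LPS + IL-10 also lie.

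Across the 32 peaks of Msr1, LPS gave 14 DARs, all higher (43.75% against 11.7% of all tested peaks). LPS + IL-10 against LPS gave 18, all higher (56.25% against 4.26%), and LPS + (+)-JQ1 against LPS gave 8, all lower (25.0% against 3.48%). The last comparison had a negative log2FC at 20 of the peaks and a positive one at 12. The median log2FC over the 32 peaks was 0.50 with LPS, 0.93 with LPS + IL-10 against LPS and -0.20 with LPS + (+)-JQ1 against LPS, beside -0.03, -0.01 and -0.0025 over all tested peaks. Summed over the locus, accessibility was 131.5 ± 14.6 CPM (SD, n = 3) in unstimulated, 147.2 ± 7.61 in IL-10, 159.2 ± 3.97 in (+)-JQ1, 176.4 ± 9.14 in LPS + (+)-JQ1, 198.7 ± 16.5 in LPS and 304.3 ± 33.2 in LPS + IL-10 cells. In this order unstimulated (119.2 to 147.7) overlapped IL-10 (138.6 to 153.2) and LPS + (+)-JQ1 (166.5 to 184.5) overlapped LPS (180.3 to 212.1). The LPS + (+)-JQ1 libraries all lay above the unstimulated ones. The (+)-JQ1 libraries (154.6 to 161.7) and the LPS + IL-10 libraries (272.4 to 338.7) overlapped no neighbour.

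The Msr1 peak with the lowest FDR in any group comparison was the intronic Msr1 +44.0 kb (chr8:40682713-40685350), whose sequence is printed above. It measured 4.55, 2.69 and 5.04 CPM in the 3 unstimulated libraries, 7.86, 10.4 and 12.4 with LPS, 30.0, 22.2 and 22.5 with LPS + IL-10 and 3.15, 3.93 and 3.68 with LPS + (+)-JQ1. The LPS + IL-10 libraries were thus the highest and the LPS + (+)-JQ1 libraries lay within the range of the unstimulated ones. Without LPS it measured 4.33, 3.84 and 5.03 CPM with IL-10 and 2.8, 1.89 and 2.51 with (+)-JQ1. The log2FC was 1.31 (SE 0.18, FDR = 3.26e-09) for LPS, 1.29 (SE 0.16, FDR = 1.96e-10) for LPS + IL-10 against LPS, -1.49 (SE 0.18, FDR = 4.95e-10) for LPS + (+)-JQ1 against LPS and -2.78 (SE 0.18, FDR = 3.19e-25) for LPS + (+)-JQ1 against LPS + IL-10. IL-10 without LPS did not pass here (0.11, FDR = 0.784), and the difference between the IL-10 effects with and without LPS was itself a DAR at 1.18 (SE 0.25, FDR = 0.000618), although not without replicate 1 (0.77, FDR = 0.104). (+)-JQ1 without LPS gave a log2FC of -0.75 (FDR = 0.00967) with overlapping libraries, which was no DAR without replicate 2 (FDR = 0.0505), replicate 3 (FDR = 0.158) or Unstimulated replicate 1 (FDR = 0.056).

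Msr1 +34.9 kb, which covers an exon and is 4600 bases wide, followed the same order. It measured 5.62, 4.12 and 4.05 CPM in unstimulated, 8.5, 9.89 and 8.84 in LPS, 21.5, 17.0 and 15.0 in LPS + IL-10 and 3.31, 3.17 and 4.88 in LPS + (+)-JQ1 libraries. No LPS + IL-10 library overlapped an LPS library, and no LPS library overlapped an LPS + (+)-JQ1 library. The log2FC was 0.99 (SE 0.18, FDR = 4.07e-06) for LPS, 0.97 (SE 0.16, FDR = 1.34e-06) for LPS + IL-10 against LPS and -1.23 (SE 0.18, FDR = 1.35e-07) for LPS + (+)-JQ1 against LPS.

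Msr1 +12.2 kb, also over an exon, was in contrast no DAR with LPS alone. Unstimulated libraries measured 5.29, 4.78 and 4.77 CPM and LPS libraries 4.59, 5.04 and 4.84 (log2FC -0.03, FDR = 0.925). LPS + IL-10 libraries measured 11.1, 12.6 and 9.69 CPM, above every other library, with a log2FC of 1.20 against LPS (SE 0.18, FDR = 1.66e-07). LPS + (+)-JQ1 libraries measured 4.15, 2.4 and 3.8 CPM, with a log2FC of -0.49 against LPS (FDR = 0.146). The interaction of LPS with IL-10 was 1.57 (SE 0.26, FDR = 2.25e-05) and remained a DAR whichever replicate number was left out.

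The peaks of Msr1 between +9 and +47 kb, a stretch set after the values were seen, held 10 of the 14 LPS DARs, 15 of the 18 LPS + IL-10 DARs and all 8 LPS + (+)-JQ1 DARs. All 18 peaks of the stretch had a positive log2FC for LPS + IL-10 against LPS (median 1.03). The 14 peaks outside it held 4, 3 and 0 of these DARs, and their median log2FC for LPS + (+)-JQ1 against LPS was 0.06. Msr1 +46.2 kb showed the steepest LPS response, from 0.944 ± 0.147 CPM in unstimulated to 4.12 ± 1.43 CPM in LPS (log2FC 2.09, SE 0.28, FDR = 1.75e-09), 8.57 ± 1.64 CPM in LPS + IL-10 and 1.86 ± 0.57 CPM in LPS + (+)-JQ1 (SD, n = 3 each). Its change with LPS + IL-10 against LPS (1.07, FDR = 0.000149) was not a DAR without replicate 1 (FDR = 0.0573), and its change with LPS + (+)-JQ1 (-1.08, FDR = 0.00177) was not one without replicate 2 (FDR = 0.0713).

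Not every Msr1 peak behaved in this way. The peak over the gene start, Msr1 -0.9 kb, measured 13.4, 18.5 and 26.9 CPM in unstimulated, 24.5, 28.3 and 29.0 in LPS, 37.1, 34.0 and 28.8 in LPS + IL-10 and 36.0, 28.8 and 30.3 in LPS + (+)-JQ1 libraries. Its ranges overlapped in each of these steps, and neither IL-10 (log2FC 0.29, FDR = 0.216) nor (+)-JQ1 (0.21, FDR = 0.484) passed the test under LPS. Its rise with (+)-JQ1 alone (log2FC 0.58, FDR = 0.0029) was 0.08 with loess offsets, 0.31 with total counts, 0.38 without Unstimulated replicate 1 and 0.48 without replicate 1, and it had an FDR of 0.187 without replicate 2. Msr1 +5.9 kb, which holds the start of another annotated transcript, was not among the peaks chosen for description. It is listed for that start and not as an exception to the pattern. Before scaling, its counts were 158, 186 and 180 in unstimulated and 309, 276 and 258 in LPS libraries. They were 368, 284 and 434 with LPS + IL-10 and 187, 209 and 299 with LPS + (+)-JQ1. Such counts do not give the order of the groups, because library totals differed. Replicate 3 held 25908198 counts in peaks with LPS + (+)-JQ1 and 16862774 with LPS. Msr1 +23.4 kb, an open exonic peak inside the responding stretch, was at 17.3 ± 3.65 CPM in unstimulated and 30.9 ± 2.62 CPM in (+)-JQ1 cells (log2FC 0.83, SE 0.14, FDR = 3.7e-06). This change was 0.36 and no DAR with loess offsets. Under LPS, its log2FC with (+)-JQ1 was 0.34 (FDR = 0.14), while the 8 peaks from +28.9 to +46.2 kb were the 8 lower DARs of that comparison.

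The neutrophil marker list moved with the LPS + IL-10 result. Of its 5 genes, 3 had a start peak, and these summed to 16.9 to 20.1 CPM in LPS + IL-10 against 8.39 to 10.8 CPM in LPS libraries. In the other groups they summed to 9.3 to 13.1 CPM with LPS + (+)-JQ1, 8.3 to 16.1 in unstimulated, 15.0 to 18.4 in (+)-JQ1 and 15.6 to 18.4 in IL-10 libraries. Nearly all of this was S100a8, while S100a9 and Elane were at or below 1.26 and 1.96 CPM in every library and the defining genes Mpo and Ly6g had no start peak. The part of neutrophils in the result was not tested.

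**Figure D2:**
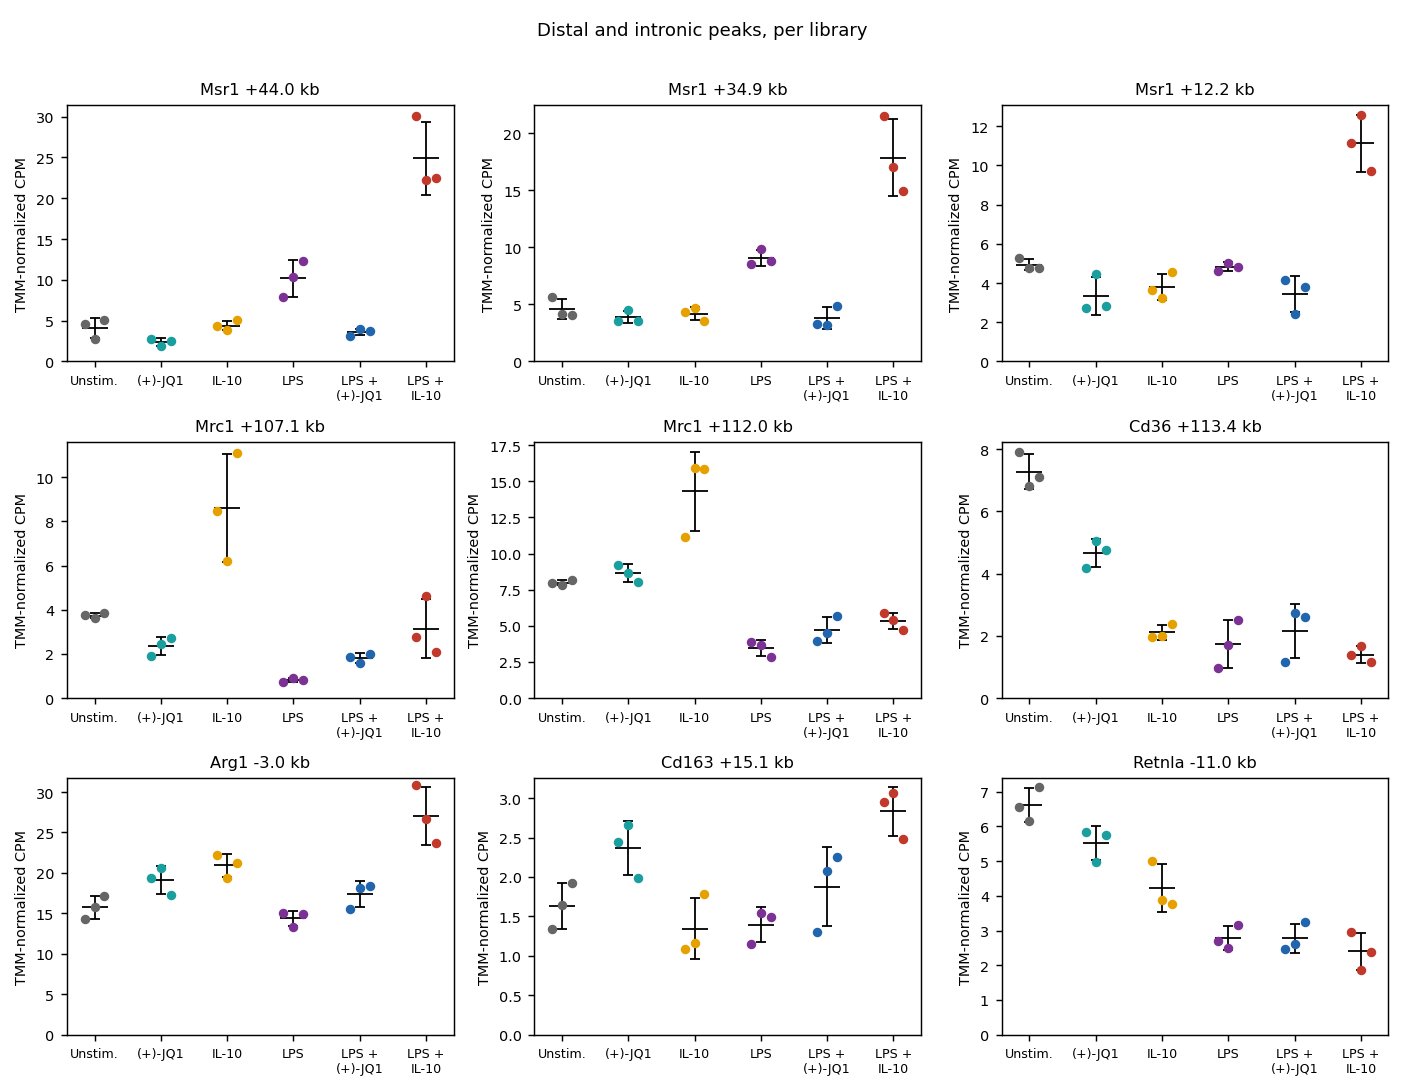
TMM-normalized CPM (y axis, from 0) of 9 peaks away from gene starts in the 6 groups (x axis). Points are the 3 libraries of a group, and the bar and whiskers are their mean ± SD; LPS + IL-10 has the highest mean at the 3 Msr1 peaks, at Arg1 -3.0 kb and at Cd163 +15.1 kb, IL-10 alone is highest at the 2 Mrc1 peaks, and the unstimulated libraries are highest at Cd36 +113.4 kb and Retnla -11.0 kb.

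At Mrc1, LPS lowered 15 of the 53 peaks (28.3% against 10.2% of all tested peaks) and raised 1 (1.89% against 11.7%). IL-10 alone raised 7 (13.2% against 5.16%) and lowered none. LPS + IL-10 against LPS raised 8 (15.1% against 4.26%) and lowered 1 (1.89% against 4.52%). The median log2FC over the locus was -0.58, 0.50 and 0.52 in these comparisons, beside -0.03, -0.05 and -0.01 over all tested peaks. For IL-10 alone 52 of the 53 peaks had a positive log2FC, most of them too small or too variable for the test. Locus sums were 145.2 ± 12.4 CPM in unstimulated, 206.3 ± 17.7 in IL-10, 116.5 ± 2.55 in LPS, 153.4 ± 7.88 in LPS + IL-10, 162.2 ± 5.83 in (+)-JQ1 and 143.2 ± 8.02 in LPS + (+)-JQ1 cells (SD, n = 3). The LPS libraries (113.7 to 118.7) lay below and the IL-10 libraries (192.7 to 226.3) above those of every other group.

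Mrc1 +107.1 kb (chr2:14257211-14259063), downstream of the gene, measured 3.75, 3.63 and 3.83 CPM in unstimulated, 8.46, 6.22 and 11.1 in IL-10 and 0.735, 0.899 and 0.836 in LPS libraries. The 3 groups did not overlap. LPS + IL-10 libraries measured 2.74, 4.63 and 2.07 CPM and LPS + (+)-JQ1 libraries 1.84, 1.58 and 2.02, all above the LPS libraries, and (+)-JQ1 alone gave 1.91, 2.45 and 2.72. The log2FC was -2.18 (SE 0.28, FDR = 2.15e-10) for LPS, 1.20 (SE 0.21, FDR = 2.89e-05) for IL-10, 1.91 (SE 0.28, FDR = 1.15e-07) for LPS + IL-10 against LPS and -1.86 (SE 0.22, FDR = 8.47e-10) for (+)-JQ1 against IL-10. The rise with LPS + (+)-JQ1 against LPS (1.15, SE 0.30, FDR = 0.00842) was not a DAR without replicate 1 (FDR = 0.0639) or without replicate 3 (FDR = 0.122). For (+)-JQ1 the effect with LPS exceeded that without by 1.81 (SE 0.39, FDR = 0.00354), which was not a DAR without replicate 1 (FDR = 0.0779) or replicate 2 (FDR = 0.0506).

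Mrc1 +112.0 kb repeated the LPS and IL-10 directions at a higher level. It measured 7.96, 7.8 and 8.16 CPM in unstimulated, 11.2, 15.9 and 15.8 in IL-10, 3.9, 3.69 and 2.81 in LPS and 5.89, 5.39 and 4.73 in LPS + IL-10 libraries. LPS lowered it by 1.19 on the log2 scale (FDR = 5.42e-08) and IL-10 alone raised it by 0.84 (FDR = 0.000102, but 0.0561 without replicate 2). (+)-JQ1 alone left it at 8.66 ± 0.597 CPM (log2FC 0.12, FDR = 0.727). Its rise of 0.61 with LPS + IL-10 against LPS (FDR = 0.0195) was not a DAR when any 1 replicate number was left out (FDR = 0.0612 to 0.119).

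Among the 15 Mrc1 peaks from +80 kb on, a boundary set after the values were seen, all had a negative log2FC with LPS (8 DARs, median -1.19) and all a positive one with IL-10 (5 DARs, median 0.81). The 38 other peaks held 7 lower and 1 higher LPS DAR (median -0.35) and 2 IL-10 DARs (median 0.44). The 1 peak raised by LPS, the intronic Mrc1 +66.1 kb, went the other way for LPS + IL-10 against LPS as well. It measured 3.28, 3.13 and 4.77 CPM in unstimulated, 6.57, 5.64 and 4.96 in LPS and 4.01, 2.84 and 2.66 in LPS + IL-10 libraries, so that LPS + IL-10 lay back within the unstimulated range or just below it. Its log2FC was 0.62 for LPS (FDR = 0.0123, but 0.196 without replicate 1 and 0.168 without replicate 2) and -0.86 for LPS + IL-10 against LPS (SE 0.20, FDR = 0.00103). The LPS + (+)-JQ1 libraries, at 7.84, 6.11 and 5.62 CPM, were above those of LPS + IL-10 by 1.02 (SE 0.20, FDR = 7.02e-05).

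At the start of Mrc1 the changes were smaller. The peak at +0.8 kb measured 14.7, 17.2 and 20.6 CPM in unstimulated, 14.9, 11.0 and 15.8 in LPS and 19.5, 23.6 and 18.6 in LPS + IL-10 libraries. The LPS + IL-10 libraries lay above the LPS libraries, with a log2FC of 0.56 (SE 0.14, FDR = 0.00417), which was 0.31 and no DAR without replicate 2 (FDR = 0.429). LPS (-0.33, FDR = 0.0815) and IL-10 alone (0.36, FDR = 0.0786) did not pass.

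At Cd36, the 15 peaks from +90 kb on, the 3′ part of the gene and the DNA downstream, all had a negative log2FC with LPS (9 DARs, median -1.19) and with IL-10 (9 DARs, median -1.31). The 17 peaks before +60 kb, which include those over transcript starts, held 1 higher and 1 lower LPS DAR (median 0.11) and 1 IL-10 DAR, which was lower (median -0.05). The 11 peaks between +60 and +90 kb held no LPS DAR, although 10 had a negative log2FC (median -0.53), and 3 lower IL-10 DARs (median -0.71). (+)-JQ1 under LPS raised 4 peaks in this 5′ part and none in the 3′ part. These boundaries were set after the values were seen, and no test of the difference between the stretches was run. Over the whole locus of 43 peaks LPS gave 1 higher and 10 lower DARs (2.33% and 23.3%, against 11.7% and 10.2% of all tested peaks). IL-10 gave none higher and 13 lower (30.2% against 3.5%), and (+)-JQ1 against IL-10 gave 9 higher (20.9% against 1.02%) and none lower.

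Downstream, Cd36 +113.4 kb (chr5:17280609-17282053) measured 7.9, 6.81 and 7.12 CPM in unstimulated libraries, 4.17, 5.04 and 4.76 with (+)-JQ1, 1.97, 1.99 and 2.4 with IL-10 and 0.965, 1.7 and 2.51 with LPS. LPS + (+)-JQ1 gave 1.15, 2.73 and 2.6 CPM and LPS + IL-10 gave 1.37, 1.68 and 1.15. The unstimulated libraries were the highest, the (+)-JQ1 libraries lay between them and all others, and the 4 remaining groups lay between 0.965 and 2.73 CPM. The log2FC was -2.10 (SE 0.24, FDR = 2.07e-12) for LPS and -1.77 (SE 0.23, FDR = 9.44e-09) for IL-10, and (+)-JQ1 was above IL-10 by 1.13 (SE 0.24, FDR = 0.001, but 0.0953 without replicate 2). Its fall with (+)-JQ1 (-0.64, FDR = 0.0309) was not a DAR without any 1 replicate number (FDR = 0.0873 to 0.229), without Unstimulated replicate 1 (FDR = 0.129), with loess offsets (FDR = 0.112) or with DESeq2 (FDR = 0.0801).

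Its neighbours followed the same course. Cd36 +111.8 kb, which overlaps AC154124.1, went from 6.04 ± 0.942 CPM in unstimulated to 2.32 ± 0.264 in LPS (log2FC -1.38, FDR = 5.63e-07) and 2.06 ± 0.161 in IL-10 cells (-1.55, FDR = 4.54e-07). Cd36 +110.3 kb went from 5.59 ± 1.05 CPM to 1.83 ± 0.459 (-1.63, FDR = 5.41e-08) and 2.39 ± 0.638 (-1.23, FDR = 0.00014) in the same groups (SD, n = 3). At each of these peaks IL-10 given before LPS lowered the level no further by the test (log2FC against LPS of -0.28, -0.22 and -0.33, FDR = 0.519 to 0.659). (+)-JQ1 alone took Cd36 +111.8 kb to 3.39 ± 0.9 CPM (-0.84, FDR = 0.00368, but 0.0818 without replicate 2).

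At the transcript-start peak Cd36 +51.1 kb (chr5:17341329-17346081) the (+)-JQ1 groups stood out. It measured 15.3, 18.4 and 27.8 CPM in unstimulated, 31.4, 30.9 and 34.1 in (+)-JQ1, 20.4, 24.4 and 21.8 in LPS and 31.3, 33.8 and 30.1 in LPS + (+)-JQ1 libraries, with IL-10 at 19.9 ± 1.28 and LPS + IL-10 at 23.0 ± 2.76 CPM. The libraries with (+)-JQ1 were above all those without it. The log2FC was 0.64 (SE 0.14, FDR = 0.000407) without LPS and 0.52 (SE 0.14, FDR = 0.0127) with it. The first was 0.18 with loess offsets, 0.38 with total counts and 0.48 without Unstimulated replicate 1, and the second was 0.44 with loess offsets (FDR = 0.0009), so that none of these 4 passed the fold limit. The first also had an FDR of 0.0917 without replicate 2, and the second had an FDR of 0.0596 without replicate 1 and 0.191 without replicate 2. Housekeeping start peaks did not separate LPS + (+)-JQ1 (138.4 to 159.2 CPM) from LPS (137.5 to 156.2 CPM). The summed start peaks of the 8 macrophage markers did, at 184.1 to 202.7 CPM in LPS + (+)-JQ1 and 153.4 to 164.1 CPM in LPS libraries. The part of such shifts in the Cd36 result was not tested. The other transcript-start peak, Cd36 +38.3 kb, was at 9.21 ± 1.17 CPM in LPS + (+)-JQ1 and 6.81 ± 1.41 in LPS cells, which overlapped (log2FC 0.42, FDR = 0.122).

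In the introns of the 5′ part, Cd36 +46.5 kb measured 8.45, 11.1 and 10.9 CPM in LPS and 16.0, 15.3 and 16.3 in LPS + (+)-JQ1 libraries, which did not overlap (log2FC 0.65, SE 0.15, FDR = 0.00239). This change was a DAR under each alternative run, including without each replicate number. It was also above the LPS + IL-10 libraries (11.8, 10.8 and 10.4 CPM) by 0.53 (FDR = 0.0125), which was not a DAR with total counts (0.46) or without replicate 2 (FDR = 0.141) or replicate 3 (FDR = 0.125). Cd36 +12.2 kb rose from 9.2 ± 1.1 CPM in unstimulated to 15.6 ± 1.15 in (+)-JQ1 cells (log2FC 0.76, SE 0.15, FDR = 4.21e-05), which was 0.48 with total counts. Cd36 +55.0 kb, in contrast, was lowest with IL-10 alone at 2.26, 3.55 and 2.96 CPM, against 4.89, 5.22 and 4.16 in unstimulated libraries (-0.70, FDR = 0.0183, but 0.243 without replicate 1, 0.104 without replicate 2 and 0.0704 without Unstimulated replicate 1).

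At Arg1, LPS + IL-10 against LPS raised 3 of the 9 peaks (33.3% against 4.26% of all tested peaks) and lowered none. The log2FC of this comparison was positive in all 9 (median 0.47). LPS + (+)-JQ1 was below LPS + IL-10 at 3 (33.3% against 4.67%). LPS alone lowered 1 peak (11.1% against 10.2%) and (+)-JQ1 alone raised 1 (11.1% against 7.85%), near the shares of all tested peaks. IL-10 alone gave no DAR at Arg1 by edgeR or by DESeq2, and 2 of the 9 peaks had an unadjusted p below 0.05. The test of whether IL-10 acted differently with LPS than without also gave no DAR at Arg1 by either tool, with an unadjusted p below 0.05 at 3 of the 9 peaks. Arg1 -3.0 kb (chr10:24648666-24651843), which holds the STAT6-type match printed above, measured 15.0, 13.3 and 14.9 CPM in LPS and 30.8, 26.7 and 23.6 in LPS + IL-10 libraries, the highest of the 18. Unstimulated libraries measured 14.3, 15.8 and 17.1 CPM, IL-10 libraries 22.2, 19.4 and 21.2, (+)-JQ1 libraries 19.4, 20.7 and 17.3 and LPS + (+)-JQ1 libraries 15.5, 18.2 and 18.4. The log2FC was 0.91 (SE 0.14, FDR = 2.33e-07) for LPS + IL-10 against LPS and -0.63 (SE 0.14, FDR = 0.000432) for LPS + (+)-JQ1 against LPS + IL-10, the second being -0.47 without replicate 1 and so short of the fold limit. IL-10 alone did not overlap the unstimulated libraries but stayed below the fold limit at 0.41 (FDR = 0.0369).

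The upstream peak Arg1 -23.2 kb fell with LPS, from 5.82, 5.55 and 7.4 to 3.81, 3.94 and 3.29 CPM (log2FC -0.76, SE 0.20, FDR = 0.00179, but 0.0945 without replicate 3). With LPS + IL-10 it stood at 7.36, 5.62 and 5.37 CPM (0.73 against LPS, FDR = 0.00636, but 0.08 without replicate 1). (+)-JQ1 alone raised it to 8.53, 10.4 and 9.72 CPM, above every unstimulated library (log2FC 0.61, SE 0.18, FDR = 0.0131). That rise was no DAR with loess offsets (FDR = 0.072), total counts (0.33, FDR = 0.173), without Unstimulated replicate 1 (FDR = 0.0623) or without replicate 2 (0.46, FDR = 0.275). The peak over the Arg1 start, at -0.3 kb, lay between 5.89 and 10.4 CPM in all 18 libraries and passed in no comparison, its largest log2FC being 0.34 for LPS + IL-10 against LPS (SE 0.17, FDR = 0.203). The peaks at +25.4, +23.8, +17.3 and +15.1 kb cover part of Med23, and that at +17.3 kb was classed as a promoter. The counts of DARs and the locus sums given for Arg1 (49.0 ± 0.978 CPM in LPS, 73.8 ± 10.0 in LPS + IL-10) include these peaks. Arg1 +23.8 kb, over Med23, averaged 0.819 CPM in LPS, 1.81 in LPS + IL-10 and 0.504 in LPS + (+)-JQ1 cells.

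**Figure D3:**
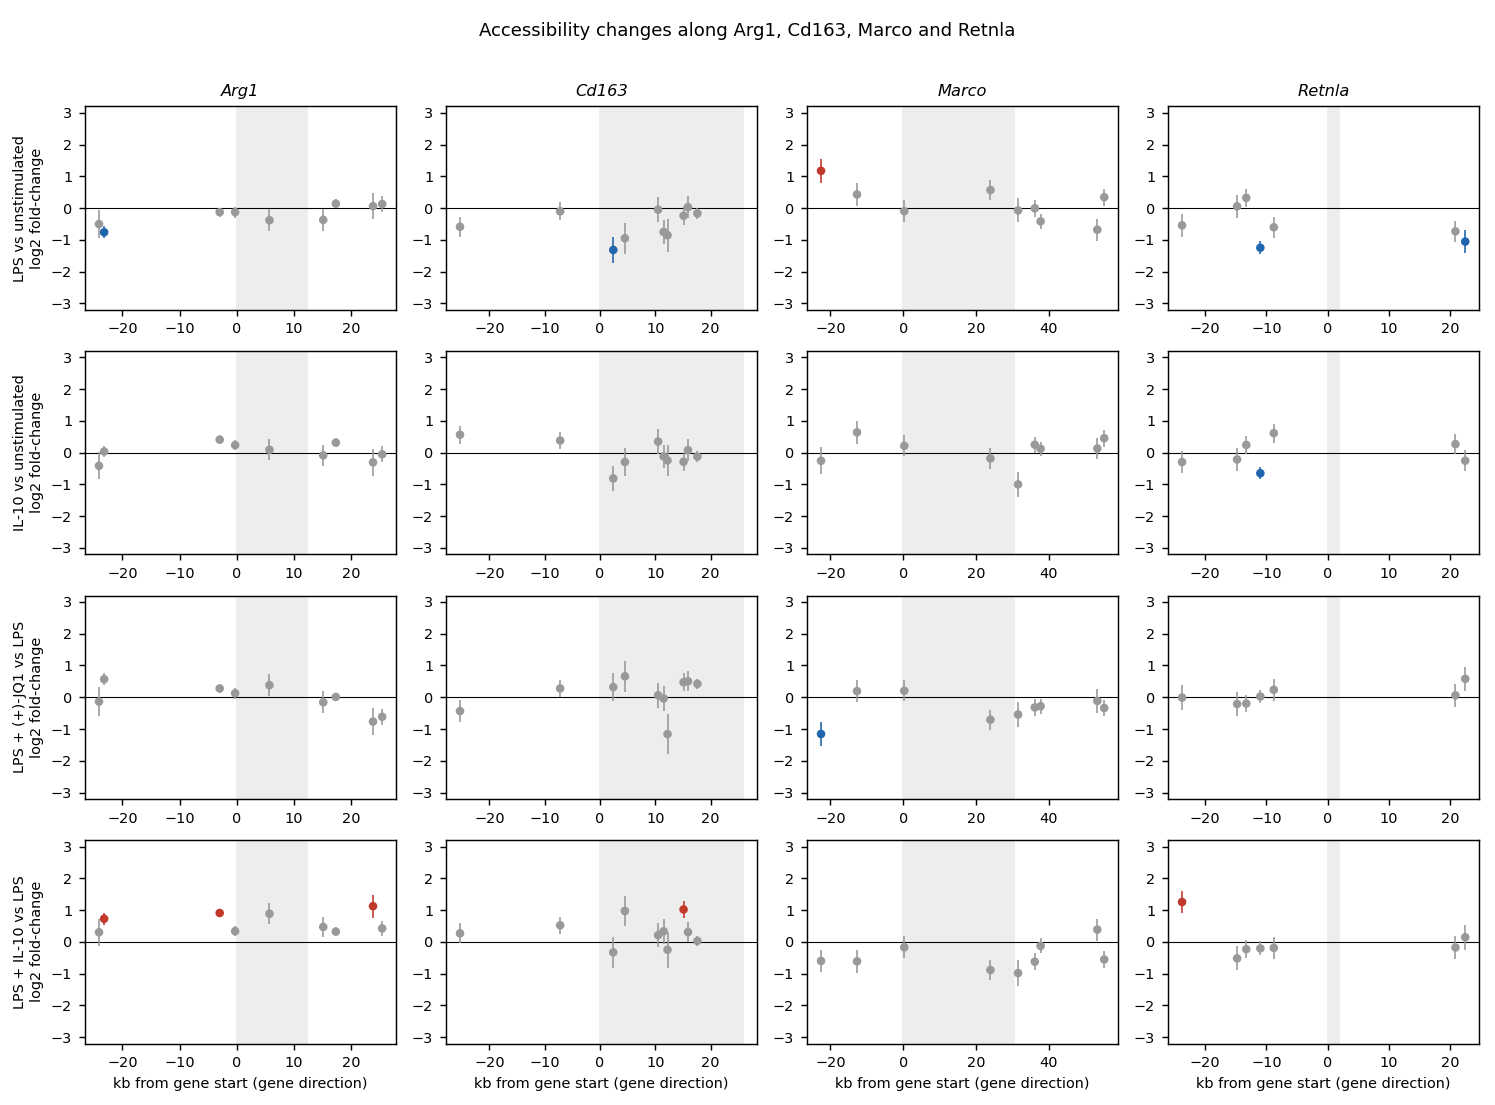
Log2 fold-change (y axis, bars are the standard error) of each peak along Arg1, Cd163, Marco and Retnla against the distance of its midpoint from the gene start in kb (x axis), for 4 comparisons (rows). Grey shading is the gene body, and red and blue points are DARs that rose or fell; LPS + IL-10 against LPS raised 3 peaks at Arg1, 1 at Cd163 and 1 at Retnla and none at Marco.

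Cd163 had little accessibility near its start and few DARs. Its 10 peaks summed to 17.6 ± 1.45 CPM in unstimulated, 14.1 ± 1.22 in LPS, 22.9 ± 0.979 in (+)-JQ1 and 17.4 ± 0.937 in LPS + IL-10 cells. The peak Cd163 +15.1 kb, which lies in an intron of the annotation used here and which the authors classed as a promoter, measured 1.15, 1.55 and 1.49 CPM in LPS and 2.95, 3.07 and 2.48 in LPS + IL-10 libraries, without overlap (log2FC 1.02, SE 0.27, FDR = 0.00636, but 0.0942 without replicate 1 and 0.0666 without replicate 2). IL-10 without LPS left it at 1.08, 1.17 and 1.78 CPM beside 1.34, 1.65 and 1.92 in unstimulated libraries (-0.29, FDR = 0.591). Cd163 +2.4 kb fell with LPS from 1.24 ± 0.0655 to 0.494 ± 0.0144 CPM (-1.32, FDR = 0.0131), a call that was lost when any 1 replicate number was left out (FDR = 0.0518 to 0.108). Cd163 -7.2 kb rose with (+)-JQ1 from 1.83 ± 0.607 to 3.50 ± 0.829 CPM (0.92, FDR = 0.00876, but 0.0524 without replicate 2, 0.154 without replicate 3, 0.0723 without Unstimulated replicate 1 and 0.0786 with total counts).

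At Retnla, the summed level was lower in the LPS libraries, with or without (+)-JQ1 or IL-10. The sum of its 7 peaks was 15.5 ± 0.15 CPM in unstimulated cells against 9.61 ± 0.492 in LPS, 9.70 ± 1.11 in LPS + (+)-JQ1 and 9.76 ± 1.33 in LPS + IL-10 cells (SD, n = 3), and no library with LPS reached the lowest without it. LPS lowered 2 of its 7 peaks by the test (28.6% against 10.2% of all tested peaks) and raised none. The LPS log2FC was negative at 5 of the 7 and positive at 2. Retnla -11.0 kb held the largest part of the fall in the sum. At Retnla -11.0 kb (chr16:48830813-48832576) the unstimulated libraries measured 6.56, 6.15 and 7.12 CPM, those with IL-10 5.01, 3.89 and 3.76 and those with LPS 2.71, 2.5 and 3.17, and the 3 groups did not overlap. LPS + (+)-JQ1 (2.46, 2.62 and 3.26 CPM) and LPS + IL-10 (2.95, 1.85 and 2.39 CPM) both overlapped LPS. The log2FC was -1.25 (SE 0.20, FDR = 3.81e-07) for LPS and -0.65 (SE 0.19, FDR = 0.0159) for IL-10, the latter not a DAR without replicate 2 (FDR = 0.153), replicate 3 (FDR = 0.172) or Unstimulated replicate 1 (FDR = 0.0554). The 1 DAR higher in LPS + IL-10 than in LPS, Retnla -23.8 kb over Retnlb (log2FC 1.25, FDR = 0.00827), was not a DAR without replicate 1 (0.74, FDR = 0.33).

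At Marco, 2 of the 9 peaks were DARs in any group comparison (against 38.3% of all tested peaks), both near 1 CPM. The 9 peaks summed to 15.1 ± 1.35 CPM in unstimulated, 13.9 ± 1.46 in (+)-JQ1, 16.6 ± 2.16 in IL-10, 15.8 ± 2.57 in LPS, 12.7 ± 0.507 in LPS + (+)-JQ1 and 11.7 ± 0.776 in LPS + IL-10 cells (SD, n = 3). The LPS + IL-10 libraries (11.2 to 12.6) lay below the LPS libraries (13.4 to 18.5). LPS + IL-10 against LPS had a negative log2FC at 8 of the 9 peaks (median -0.60), with no DAR by edgeR or DESeq2 and an unadjusted p below 0.05 at 4. Marco -22.6 kb measured 1.21, 0.549 and 0.548 CPM in unstimulated, 2.3, 1.55 and 1.2 in LPS and 1.08, 0.764 and 0.543 in LPS + (+)-JQ1 libraries. The highest unstimulated library lay just above the lowest LPS library, and the log2FC was 1.17 for LPS (SE 0.37, FDR = 0.0136, but 0.131 without replicate 2 and 0.059 with total counts). It was -1.15 for LPS + (+)-JQ1 against LPS (SE 0.37, FDR = 0.044), a change that was not a DAR with the lane as a covariate (FDR = 0.0504), with DESeq2 (FDR = 0.0557) or without any 1 replicate number (FDR = 0.194 to 0.211). Marco +31.6 kb fell with (+)-JQ1 from 1.23 ± 0.167 to 0.44 ± 0.0715 CPM (-1.47, SE 0.44, FDR = 0.0136, but 0.073 to 0.134 without any 1 replicate number and 0.0786 with loess offsets). The peak over the Marco start lay between 0.66 and 1.96 CPM in all 18 libraries and passed in no comparison.

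**Figure D4:**
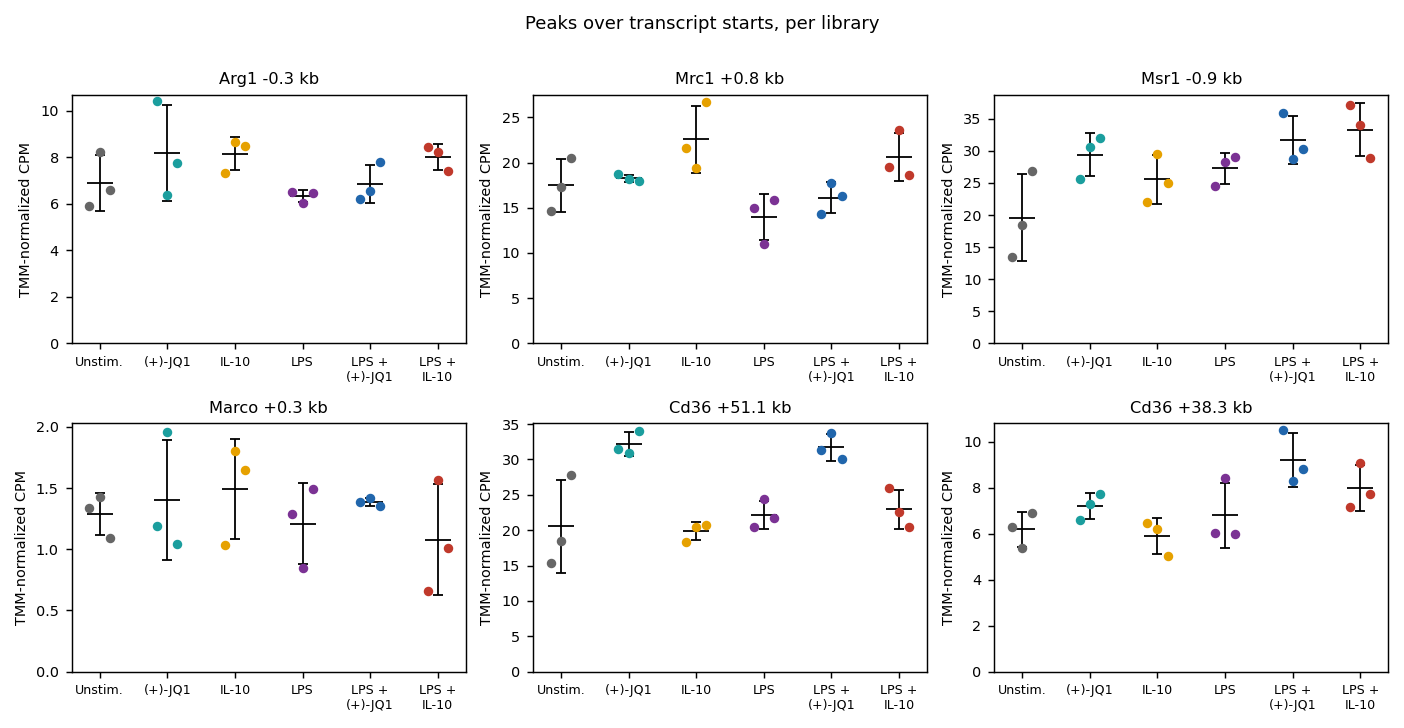
TMM-normalized CPM (y axis, from 0) of 6 peaks over annotated transcript starts of Arg1, Mrc1, Msr1, Marco and Cd36 in the 6 groups (x axis). Msr1 +5.9 kb, which also holds the start of an annotated transcript, is not shown. Points are the 3 libraries of a group, and the bar and whiskers are their mean ± SD; no group stands apart from all others at the Arg1 and Marco peaks, and at Cd36 +51.1 kb the (+)-JQ1 libraries, with and without LPS, lie above all others.

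Per kilobase of peak, the start peaks differed in level: over all 18 libraries Msr1 -0.9 kb averaged 9.74 CPM per kb, Cd36 +51.1 kb 5.24, Mrc1 +0.8 kb 5.16, Arg1 -0.3 kb 4.29, Cd36 +38.3 kb 3.18 and Marco +0.3 kb 1.65. The start peaks elsewhere in the genome whose log2 CPM followed them most closely over the 18 libraries, among 10329 start peaks, were those of Ubash3b (Pearson r = 0.934), Pla2g4a (0.897) and Ticam2 (0.894) for Msr1 and those of Rxfp4 (0.855), Tgfbi (0.847) and Gpr77 (0.845) for Mrc1. For Arg1 they were Nipsnap1 (0.766), Adam3 (0.688) and Sh3bp1 (0.674), and for Marco Mid2 (0.721), Cdh4 (0.687) and Erbb2 (0.68). These correlations describe 18 libraries that fall into 6 groups and share their scaling, and they carry no test.

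The other genes of the 2 programs were taken from lists that do not contain the 7, with peaks found by the same rule. For 16 alternative activation genes (311 peaks), LPS against unstimulated cells gave 59 higher and 32 lower DARs (19.0% and 10.3%, against 11.7% and 10.2% of all tested peaks), with a median log2FC of 0.03. IL-10 alone gave 41 higher and 16 lower (13.2% and 5.14%, against 5.16% and 3.5%), and (+)-JQ1 alone 38 and 9 (12.2% and 2.89%, against 7.85% and 3.15%). In this list Chi3l3 (Ym1, a chitinase-like protein of a family of near-identical genes) had 19 of 31 peaks lower with LPS and 14 lower with IL-10, and none higher. Il4ra, the receptor chain of IL-4 and IL-13, had 14 of 24 peaks higher with IL-10 alone and 12 higher with LPS + IL-10 against LPS. Ccl22, a chemokine for CCR4, had 8 of 9 peaks lower with LPS + IL-10 against LPS, and Pparg, a lipid-sensing nuclear receptor, had 8 of 36 higher with LPS + (+)-JQ1 against LPS. For LPS + IL-10 against LPS the list held 27 higher and 16 lower DARs (8.68% and 5.14%, against 4.26% and 4.52% of all peaks), and for LPS + (+)-JQ1 against LPS 13 and 5 (4.18% and 1.61%, against 1.74% and 3.48%).

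The same shares of all tested peaks stand beside the 15 other scavenger receptor genes (294 peaks). LPS gave 19 higher and 58 lower DARs (6.46% and 19.7%, against 11.7% and 10.2%), with a median log2FC of -0.30. The losses included 14 of 24 peaks at Stab2 and 8 of 21 at Stab1, endocytic receptors of the stabilin family. LPS + IL-10 against LPS gave 36 higher and 6 lower DARs (12.2% and 2.04%, against 4.26% and 4.52%), of which 14 of the gains were at Stab1 and 10 at Scarb1, the HDL receptor. LPS + (+)-JQ1 against LPS gave 20 higher and 2 lower (6.8% and 0.68%, against 1.74% and 3.48%), 7 of the gains at Stab1. IL-10 alone gave 19 higher and 7 lower DARs in this list (6.46% and 2.38%, against 5.16% and 3.5%), and (+)-JQ1 alone 41 and 10 (13.9% and 3.4%, against 7.85% and 3.15%). The genes named from both lists were chosen after their counts were seen.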

How the data were processed

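ATAC-seq was done on 18 libraries, 3 per group, numbered 1 to 3. Per the paper's methods and the submitters' processing notes, the authors aligned read pairs to mm9 with Bowtie2 in PEPATAC, ran MACS2 on every library, merged the peaks into a union and classed peaks with ChIPseeker. The deposited values are raw read counts per peak, with no normalization or pooling. The counting tool and any Tn5 offset are not given in the sources used here. A further 6 columns match no sample described here and were not used. Deposited peak coordinates are printed as given.

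The test was that of edgeR 4.0.16, in R 4.3.3, on the counts of all peaks (filterByExpr, TMM, quasi-likelihood F test, 1 fit of 6 group means, Benjamini-Hochberg adjustment over all 194230 tested peaks). CPM are TMM-normalized CPM from edgeR. Leaving all groups in 1 fit shares the estimate of the spread. The methods give 3 mice and biological triplicate, but not which library came from which mouse, so p-values measure the spread between these libraries.

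The members and lists were chosen with earlier results of these data known. Peaks were chosen for description as the start peaks, then for each group comparison the 3 rising and the 3 falling DARs of greatest log2FC, and the 2 largest per interaction, with at least 50 mean normalized counts and, between groups, 1 direction in all 3 same-numbered pairs. This gave 22 peaks, and 10 more (Arg1 -3.0 and -23.2, Mrc1 +109.3, Cd163 -7.2, +2.4 and +15.1, Marco +31.6 and -22.6, Retnla -23.8 and -11.0 kb) were added after their values were seen.

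Replicate 1 was run in lane 5 and replicate 3 in lane 6, while replicate 2 was in lane 5 without and lane 6 with LPS. No 2 libraries of a group agreed within sampling noise (chi-square per degree of freedom 1.91 to 4.21). On simulated counts for LPS against unstimulated, 174 of 200 peaks changed by a log2FC of 1.5 were recovered, with 7 false calls among 193264 tested. The simulation drew all groups from the unstimulated means, with the same spread for every peak and no shift in scaling between groups. Its error rate therefore does not cover the scaling step from unstimulated cells. Alternatives were DESeq2 1.42.0, its size factors, total-count and loess scaling (span 0.3), no filter, the replicate block, the lane, only the groups compared, no fold limit and each replicate number left out. Leaving out Unstimulated replicate 1 was added after seeing the data.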

Additional observations from a re-analysis of the deposited data

Results flagged for a closer look

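The effect of IL-10 or of (+)-JQ1 differed between cells with and without LPS at the peaks below, by the interaction term of the edgeR fit. The value is the log2FC with LPS minus that without.

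IL-10 acted more positively with LPS at Msr1 +12.2 kb (1.57), Msr1 +28.9 kb (1.28), Msr1 +44.0 kb (1.18) and Msr1 +34.9 kb (1.10), and at Retnla -23.8 kb (1.55) and Cd163 +15.1 kb (1.31). At Cd36 +113.4 kb (1.49), Cd36 +111.8 kb (1.33) and Cd36 +55.0 kb (1.10) the positive value goes with a fall with IL-10 in cells without LPS. IL-10 acted more negatively with LPS at Mrc1 +66.1 kb (-1.17). (+)-JQ1 acted more negatively with LPS at Msr1 +46.2 kb (-1.64) and Msr1 +34.9 kb (-0.98), and more positively at Mrc1 +107.1 kb (1.81). At Mrc1 +107.1 kb the (+)-JQ1 libraries lay below the unstimulated ones without LPS and above the LPS ones with it. Of these 13, the value at Msr1 +12.2 kb was still a DAR whichever replicate number was left out, and the other 12 were each lost without at least 1 number. The value moved by more than 1.5 times without replicate 1 at Retnla -23.8 kb (0.82), Cd36 +55.0 kb (0.61) and Msr1 +44.0 kb (0.77), and without replicate 2 for (+)-JQ1 at Msr1 +34.9 kb (-0.61). Retnla -23.8 kb was also lost with DESeq2 (FDR = 0.0682), with loess offsets (FDR = 0.091) and without Unstimulated replicate 1 (FDR = 0.2), Msr1 +28.9 kb without Unstimulated replicate 1 (FDR = 0.0563), Cd163 +15.1 kb with loess offsets (FDR = 0.0631), and (+)-JQ1 at Msr1 +34.9 kb with loess offsets (FDR = 0.0696) and total counts (FDR = 0.115).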

How the results depend on the processing

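Of 100 calls at the 32 peaks chosen for description, none reversed under any alternative. The call was kept by 90 of the 99 with a DESeq2 adjusted p, 99 with DESeq2's size factors, 99 with the lane as a covariate, 100 with no filter, 98 with only the groups compared, 83 with loess offsets, 84 with total counts, 86 without Unstimulated replicate 1, and 66, 54 and 76 without replicates 1, 2 and 3. Leaving out a number leaves fewer samples. With the replicate block 99 were kept, and the call lost was that of Marco -22.6 kb for LPS + (+)-JQ1 against LPS (FDR = 0.0562). The labels do not state that the numbers pair libraries. Deviations from the group means correlated by 0.0057 on average over 45 same-numbered pairs (-0.0819 to 0.0644), against -0.0029 over 90 other pairs, and 9 of the 18 libraries correlated best with one of their own number.

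The number of DARs among the 163 peaks, without each replicate number, ranged from 25 to 40 for LPS (46 with all libraries), 7 to 20 for (+)-JQ1 (22), 11 to 20 for IL-10 (23), 9 to 14 for LPS + (+)-JQ1 against LPS (15; 16 without Unstimulated replicate 1), 18 to 30 for LPS + IL-10 against LPS (34; 35 without Unstimulated replicate 1), 20 to 25 for LPS + (+)-JQ1 against LPS + IL-10 (27), 6 to 19 for (+)-JQ1 against IL-10 (23), 0 to 4 for the (+)-JQ1 interaction (3) and 6 to 15 for the IL-10 interaction (20; 17 without Unstimulated replicate 1). For (+)-JQ1 against unstimulated it was 7 with loess offsets and 10 without Unstimulated replicate 1. For (+)-JQ1 against IL-10 it was 11 with DESeq2, which gave no adjusted p for 12 of the 23. For the (+)-JQ1 interaction DESeq2 gave 7, and for the IL-10 interaction total counts gave 31 (30 higher).

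Scaling to total counts moved the median log2FC of all peaks from -0.03 to -0.26 for LPS, from -0.09 to -0.37 for (+)-JQ1 and from -0.05 to -0.26 for IL-10 against unstimulated, and to 0.31 and 0.29 for the IL-10 and (+)-JQ1 interactions. The split of higher and lower DARs then became 8 and 48 for LPS, 1 and 20 for (+)-JQ1, 6 and 26 for IL-10, and 3 and 1 for the (+)-JQ1 interaction. In the comparisons within LPS the split moved by at most 2 peaks in either direction. Peaks near 1 CPM rest on few reads per library and limit the calls at Cd163, Marco and Retnla.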
